A study of Mus musculus with 6 samples.

Results

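The genes that time the passage from G1 into S phase were followed in a mouse macrophage line after knockdown of Trem2. The group held 10 genes taken by name, namely the D-type cyclins Ccnd1, Ccnd2 and Ccnd3, the E-type cyclins Ccne1 and Ccne2, the kinases Cdk4 and Cdk6, and the inhibitors Cdkn1b, Cdkn2c and Cdkn2d. The count table held 56092 gene symbols, of which 13528 passed the filter on low counts, and all 10 genes were among those tested. RAW264.7 cells had been transduced with a lentiviral vector carrying GFP and an shRNA, either a control (shNC) or one directed at Trem2 (shTrem2), and were selected with puromycin into stable lines. Both groups then received IL-4, the cytokine used to polarize macrophages towards a repair state, at 20 ng/mL for 24 hours, followed by 24 hours with debris of freeze-thawed TCMK-1 cells, a mouse kidney tubular line. There were 3 libraries of stranded poly(A) RNA-seq in each group. The contrast analysed was shTrem2 against shNC, both with IL-4 and debris. The study describes a pair of Trem2 shRNAs, and which of them these libraries carried is not given in the sources used here. The labels do not say that replicates came from separate cultures, so p-values measure the spread between these samples, which may be technical.

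D-type cyclins are induced by growth factor signals such as CSF1 in macrophages and activate CDK4 and CDK6, which begin to phosphorylate the retinoblastoma protein and so release E2F transcription factors. E2F raises the E-type cyclins, which activate CDK2 and drive entry into S phase. INK4 inhibitors, among them the products of Cdkn2c (p18) and Cdkn2d (p19), bind CDK4 and CDK6 themselves, whereas p27, the product of Cdkn1b, binds whole cyclin-CDK complexes and restrains CDK2 above all.

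The targeted gene was read first. Trem2 stood at 116, 124 and 145 CPM (counts scaled to the total of the library) in shNC and at 63.8, 62.5 and 79.2 CPM in shTrem2, a log2 fold change of -0.87 ± 0.094 (SE; edgeR adjusted p = 3.39e-06), and the groups did not overlap. On FPKM, which scales fragments by transcript length and library size, its log2 fold change was as large as -2.08. Counts assigned to named genes ranged from 15876119 to 18088388 per shNC library and from 19358125 to 19655165 per shTrem2 library, so every shTrem2 library was the deeper. All 8 macrophage markers passed the filter on low counts and all were called by edgeR, 6 higher and 2 lower. Of these, Cd68 passed only narrowly (log2 fold change 0.12, edgeR adjusted p = 0.0489), and the groups overlapped for Cd68 and Cd14. Among all genes tested, 28.8% were called higher and 28.6% lower. Lyz2 (log2 fold change 1.39), Fcgr1 (0.85) and Csf1r (0.76) rose the most, while Itgam (-0.78) and Adgre1 (-0.56) fell. The summed level of the list was 5500 to 6440 CPM in shNC and 10400 to 11700 CPM in shTrem2. Lyz2 alone had a mean of 2830 CPM in shNC and 7270 CPM in shTrem2. Of the 6 genes of the IL-4 response, Arg1 had 1 to 3 counts in every library, Retnla, Chil3 and Ccl24 had 0 and Ccl17 had at most 1, while Mrc1 rose from between 5 and 14 counts to between 56 and 71 (edgeR adjusted p = 1.22e-05). The near absence of Arg1 goes against the description of these cells as Arg1+ after IL-4, and the libraries are given here as labelled. Of 14 tubular epithelial markers, 7 were at 0 in all libraries, Krt8, Krt18 and Epcam among them, and 13 never exceeded 10 counts. The exception was Aqp1, at 5 to 12 counts in shNC and 38 to 50 in shTrem2, and the summed level of the list was 0.618 to 1.26 CPM against 2.21 to 2.94 CPM. The 7 mesenchymal markers summed to between 0.567 and 0.9 CPM in shNC and between 0.514 and 1.07 CPM in shTrem2. The part of debris RNA and of the shift in macrophage genes in the results was not tested.

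Knockdown of Trem2 went along with opposite changes among the D-type cyclins, among the kinases and among the inhibitors. Ccnd3, Ccne2, Cdk4 and Cdkn2c rose, whereas Ccnd1, Ccnd2, Cdk6 and Cdkn1b fell. That made 8 of 10 genes with an edgeR adjusted p under 0.05, beside 57.4% of all genes tested, that is, 28.8% higher and 28.6% lower. Among these 8 genes, 5 also passed a fold change of 1.5, here called DEGs, beside 21.8% of all genes, that is, 9.46% higher and 12.4% lower. They were Ccne2 and Cdkn2c, which were higher, and Ccnd2, Cdk6 and Cdkn1b, which were lower. The 3 libraries of one group lay wholly on one side of the other group for 8 of the 10 genes, both in CPM and in FPKM, and the share over all genes was 63.5% in CPM. The median log2 fold change of the 10 genes was 0.05, and that of all genes tested was -2.84e-05. In bulk RNA, fewer cells in a given state and less RNA per cell cannot be told apart.

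**Figure D1:**
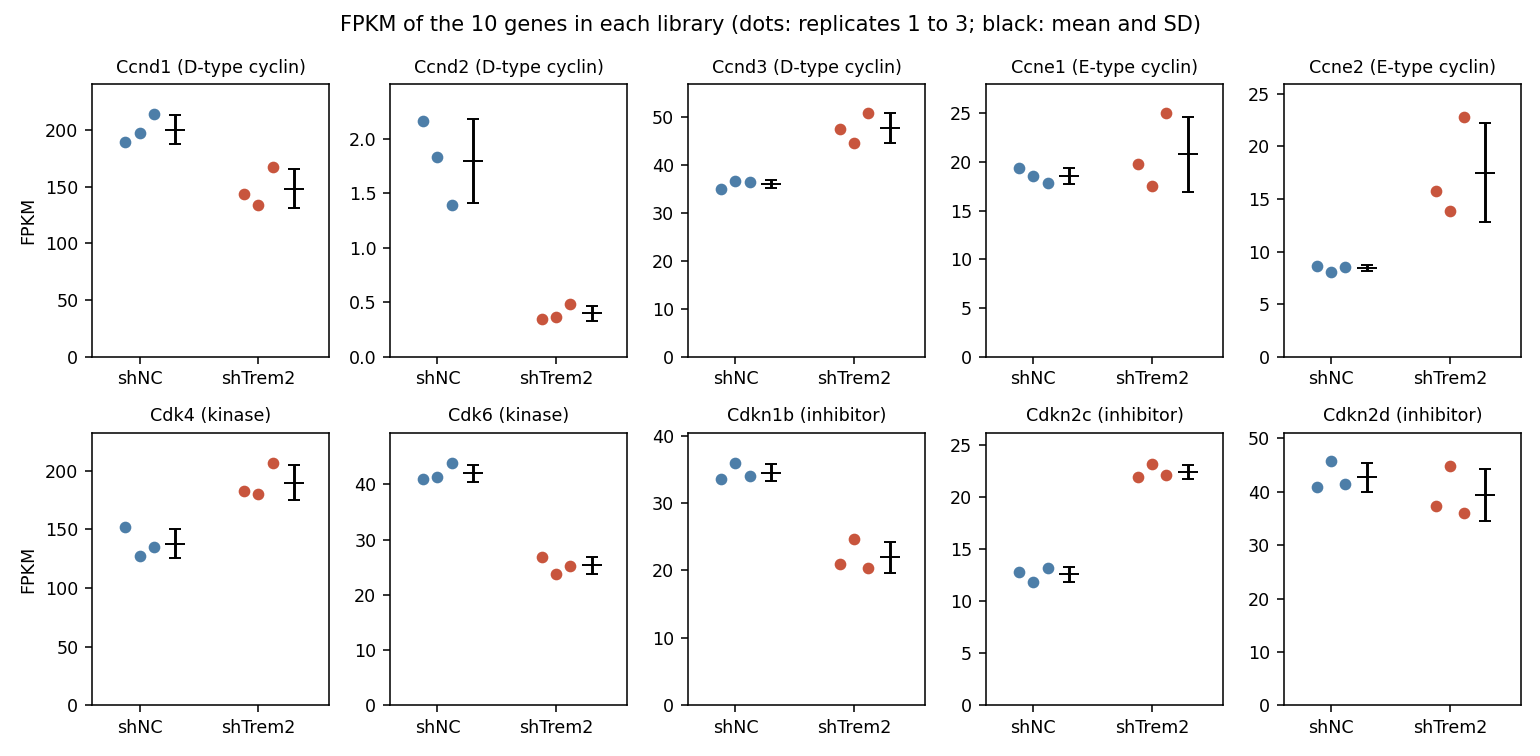
FPKM of each of the 10 genes in the 3 shNC (blue) and 3 shTrem2 (red) libraries, with the mean and SD in black; every y axis starts at 0 and has its own scale. The groups overlap for Ccne1 and Cdkn2d and are apart for the other genes, and the highest shTrem2 values of Ccnd1, Ccnd2, Ccnd3, Ccne1, Ccne2 and Cdk4 are all those of replicate 3. For Ccnd2 this holds in FPKM only, since its counts were 41, 34 and 32 in shTrem2 replicates 1 to 3.

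Among the D-type cyclins, Ccnd1 was by far the most abundant. Ccnd1 (ENSMUSG00000070348, chromosome 7) had 189, 197 and 214 FPKM in shNC and 143, 134 and 167 FPKM in shTrem2. The highest shTrem2 library remained below the lowest shNC library, and the log2 fold change was -0.45 ± 0.070 (SE), or 1.36-fold lower (edgeR adjusted p = 9.99e-05). Ccnd1 thus passed the test and missed the 1.5-fold criterion. It overlaps LTO1 on the opposite strand, which had 244 to 290 counts per library against 8670 to 13132 for Ccnd1.

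Ccnd2 (ENSMUSG00000000184, chromosome 6) showed the steepest change of the 10 genes, at a low level. It had 136, 197 and 152 counts in shNC and 41, 34 and 32 counts in shTrem2, or 2.16, 1.83 and 1.39 FPKM against 0.35, 0.36 and 0.48 FPKM. All shTrem2 libraries were far below all shNC libraries, with a log2 fold change of -2.32 ± 0.19 (SE; edgeR adjusted p = 2.15e-07), or 4.98-fold lower. The size of this change depended on the scale, because 1 added to such low FPKM values shrank it to -0.99 in limma (adjusted p = 6.89e-04).

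Ccnd3 (ENSMUSG00000034165, chromosome 17) moved the other way. Its level was 35.1, 36.7 and 36.4 FPKM in shNC and 47.6, 44.7 and 50.9 FPKM in shTrem2. The shNC libraries were tightly grouped, all shTrem2 libraries were higher, and the log2 fold change was 0.43 ± 0.062 (SE; edgeR adjusted p = 4.79e-05). The gene overlaps Bysl on the opposite strand, which had 687 to 901 counts per library, and the kit kept strand.

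The E-type cyclins differed from each other. Ccne2 (ENSMUSG00000028212, chromosome 4) had 8.66, 8.07 and 8.55 FPKM in shNC and 15.8, 13.9 and 22.8 FPKM in shTrem2. Every shTrem2 library exceeded every shNC library, although the shTrem2 libraries were spread widely, with an SD of 4.66 FPKM against 0.314 FPKM in shNC. The log2 fold change was 1.09 ± 0.13 (SE; edgeR adjusted p = 1.01e-05), or 2.12-fold higher. Ccne2, at 323 to 992 counts per library, overlaps Ints8 on the opposite strand, which had 712 to 1085 counts. Ccne1 (ENSMUSG00000002068, chromosome 7) had 19.4, 18.5 and 17.8 FPKM in shNC and 19.8, 17.5 and 25.0 FPKM in shTrem2. Its groups overlapped, since in FPKM shTrem2 replicate 2 was the lowest of all 6 libraries and shTrem2 replicate 3 the highest. The log2 fold change of Ccne1 was 0.19, with a 95% interval from -0.02 to 0.41 (edgeR adjusted p = 0.117). Without shTrem2 replicate 2 it was 0.30 (adjusted p = 0.015), so 1 library decided whether Ccne1 passed. The size of its change rested on shTrem2 replicate 3, without which it was 0.05 (edgeR adjusted p = 0.661).

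The kinases changed in opposite directions. Cdk4 (ENSMUSG00000006728, chromosome 10) had 152, 127 and 135 FPKM in shNC and 183, 180 and 207 FPKM in shTrem2. All shTrem2 libraries were above all shNC libraries, and the log2 fold change was 0.50 ± 0.046 (SE; edgeR adjusted p = 8.40e-07), or 1.41-fold higher. Cdk6 (ENSMUSG00000040274, chromosome 5) had 40.9, 41.4 and 43.8 FPKM in shNC and 26.9, 23.8 and 25.3 FPKM in shTrem2. Here all shTrem2 libraries were below, with a log2 fold change of -0.80 ± 0.049 (SE; edgeR adjusted p = 1.70e-08), or 1.74-fold lower. Cdk4 overlaps Tspan31 on the opposite strand, which had 1034 to 1253 counts per library.

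Promoters of this pair are shown because the kinases share a function and moved apart. The RefSeq table of mouse build GRCm38.p6 held entries for 7 of the 10 genes, 9 in all, and none for Ccnd1, Ccnd2 or Ccne2. The 250 bases before each start site were searched on both strands for CACGTG, the E-box bound by MYC, MAX and MXD proteins. These and the other motifs were picked after the sequences had been read. Both sequences run 5′ to 3′ on the plus strand and end at the base before the start site, at chr10:127063285-127063534 for Cdk4 and chr5:3343643-3343892 for Cdk6, with CACGTG in capitals.
Cdk4: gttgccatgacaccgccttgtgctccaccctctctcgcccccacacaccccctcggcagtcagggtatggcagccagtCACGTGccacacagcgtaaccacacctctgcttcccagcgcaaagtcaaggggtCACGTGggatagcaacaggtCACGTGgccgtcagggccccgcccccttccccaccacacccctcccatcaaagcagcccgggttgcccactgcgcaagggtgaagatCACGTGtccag
Cdk6: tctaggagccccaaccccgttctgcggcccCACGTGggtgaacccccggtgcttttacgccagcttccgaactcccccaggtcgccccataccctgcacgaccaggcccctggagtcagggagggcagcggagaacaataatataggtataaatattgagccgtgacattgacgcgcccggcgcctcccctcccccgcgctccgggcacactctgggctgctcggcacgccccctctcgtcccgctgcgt
The Cdk4 sequence held 4 copies of CACGTG, the nearest of them 11 to 6 bases before the start site and the farthest 172 to 167 bases before it. At least 4 copies were found in 7 of 32841 promoter sequences of the same length. The Cdk6 sequence held 1 copy, 220 to 215 bases before the start site, and 6.02% of all promoters held at least 1. No other entry of the 10 genes held it. In the GENCODE M21 annotation, the start site shown for Cdk6 is that of the transcript Cdk6-202. The transcript that held most of the Cdk6 count could not be named, so whether it starts there is not known. A match describes the letters and is no evidence of binding.

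Of the inhibitors, Cdkn1b fell while Cdkn2c rose. Cdkn1b (ENSMUSG00000003031, chromosome 6) had 33.6, 35.9 and 34.0 FPKM in shNC and 20.9, 24.6 and 20.4 FPKM in shTrem2. Groups were well apart, with a log2 fold change of -0.66 ± 0.064 (SE; edgeR adjusted p = 1.29e-06), or 1.58-fold lower. Cdkn2c (ENSMUSG00000028551, chromosome 4) had 12.8, 11.8 and 13.2 FPKM in shNC and 21.9, 23.2 and 22.1 FPKM in shTrem2. All shTrem2 libraries were higher, with a log2 fold change of 0.97 ± 0.087 (SE; edgeR adjusted p = 5.96e-07), or 1.95-fold. Cdkn2d (ENSMUSG00000096472, chromosome 9) had 40.9, 45.8 and 41.4 FPKM in shNC and 37.3, 44.9 and 36.0 FPKM in shTrem2. These ranges overlapped through shTrem2 replicate 2, and the log2 fold change was -0.09, with a 95% interval from -0.28 to 0.10 (edgeR adjusted p = 0.403). Without shTrem2 replicate 2 it was -0.20 (adjusted p = 0.0333), so the call for Cdkn2d also rested on that library.

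The Cdkn1b promoter is shown for its CCAAT boxes, the element bound by the trimeric factor NF-Y. The 250 bases lie at chr6:134920151-134920400 of GRCm38.p6 (RefSeq), plus strand, and CCAAT is in capitals. In GENCODE M21 the main transcript Cdkn1b-202 and the nearly absent Cdkn1b-201 share this start site, and Cdkn1b-203 starts 112 bases downstream of it.
Cdkn1b: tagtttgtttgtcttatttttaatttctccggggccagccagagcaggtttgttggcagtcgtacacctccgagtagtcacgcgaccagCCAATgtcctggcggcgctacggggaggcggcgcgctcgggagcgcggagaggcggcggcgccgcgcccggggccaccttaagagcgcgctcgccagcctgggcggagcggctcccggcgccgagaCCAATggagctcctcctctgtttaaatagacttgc
Both copies, 161 to 157 and 35 to 31 bases before the start site, read CCAAT on the strand shown. At least 2 copies on either strand were present in 10.1% of all promoters. The Cdkn2d entry and 1 of the entries of Ccnd3 held 1 copy each, and 33.9% of all promoters held at least 1. The GC box GGGCGG was found in entries of Ccnd3, Ccne1, Cdk4, Cdkn1b, Cdkn2c and Cdkn2d, and in 32.7% of all promoters. The E2F motif TTTNNCGC, with C or G at each N, matched none of the 9 entries and 1.86% of all promoters. The forkhead motif GTAAACA matched 1 of the entries of Ccnd3 and 3.17% of all promoters, and the AP-1 motif TGACTCA matched none of the entries and 4.46% of all promoters. None of these windows reaches beyond 250 bases, so they carry no information on more distant sequence.

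**Figure D2:**
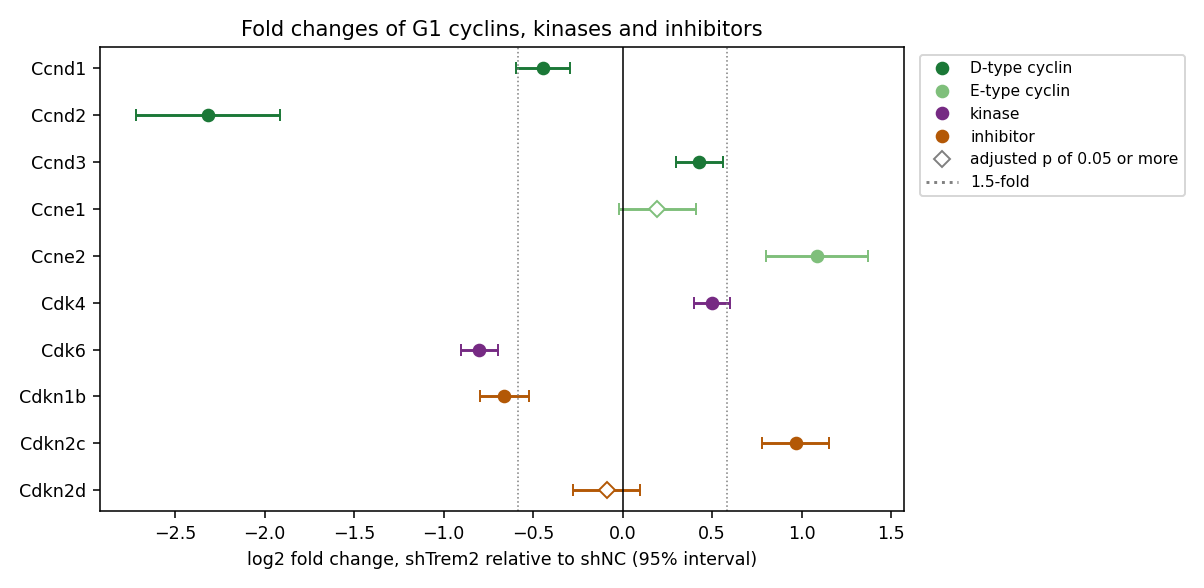
Fitted log2 fold change of each gene, shTrem2 relative to shNC, with its 95% interval from edgeR; colours mark the role of the gene, open diamonds an adjusted p of 0.05 or more, and dotted lines a fold change of 1.5. Ccnd2, Cdk6 and Cdkn1b lie beyond the line on the lower side and Ccne2 and Cdkn2c on the higher side, while the intervals of Ccne1 and Cdkn2d include 0.

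Composition within each family was then described from FPKM, since a share inside a library does not depend on scaling between libraries. For the D-type cyclins, Ccnd1 made up 84.1% ± 0.852 (SD, n = 3) of the summed FPKM in shNC and 75.4% ± 0.955 in shTrem2. Ccnd3 went from 15.2% ± 0.671 to 24.4% ± 0.971, and Ccnd2 from 0.762% ± 0.202 to 0.201% ± 0.018. None of these ranges overlapped between groups. The summed FPKM of the family was 238 ± 13.2 in shNC and 196 ± 20.2 in shTrem2, also without overlap. The ratio of Ccnd1 to Ccnd3 was 5.54 ± 0.308 in shNC and 3.10 ± 0.166 in shTrem2.

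Of the E-type cyclins, Ccne2 held 31.2% ± 1.11 of the summed FPKM in shNC and 45.5% ± 1.93 in shTrem2. Although Ccne2 levels scattered widely between shTrem2 libraries, its share did not, at 44.4%, 44.3% and 47.7%. The summed FPKM of the pair was 27 ± 0.964 in shNC and 38.3 ± 8.47 in shTrem2, without overlap.

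For the kinases, Cdk6 held 23.5% ± 1.93 of the summed FPKM in shNC and 11.8% ± 0.967 in shTrem2. The ratio of Cdk4 to Cdk6 was 3.71, 3.06 and 3.08 in shNC and 6.80, 7.59 and 8.17 in shTrem2. Their summed FPKM was higher in shTrem2, at 216 ± 14.7 against 180 ± 12.3, again without overlap. Across families, the ratio of Ccnd1 to Cdk4 was 1.46 ± 0.189 in shNC and 0.778 ± 0.0325 in shTrem2.

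The makeup of the inhibitors differed between groups, while their sum overlapped. Cdkn1b held 38.4% ± 0.0461 of their summed FPKM in shNC and 26.2% ± 0.272 in shTrem2, whereas Cdkn2c went from 14.1% ± 1.28 to 26.8% ± 1.65. The share of Cdkn2d was 47.5% ± 1.28 and 46.9% ± 1.37, with overlapping ranges. Their summed FPKM was 89.8 ± 3.17 in shNC and 83.8 ± 7.73 in shTrem2. With 3 libraries against 3, an exact two-sided permutation test cannot give a p below 0.1, so shares and ratios are given without one.

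**Figure D3:**
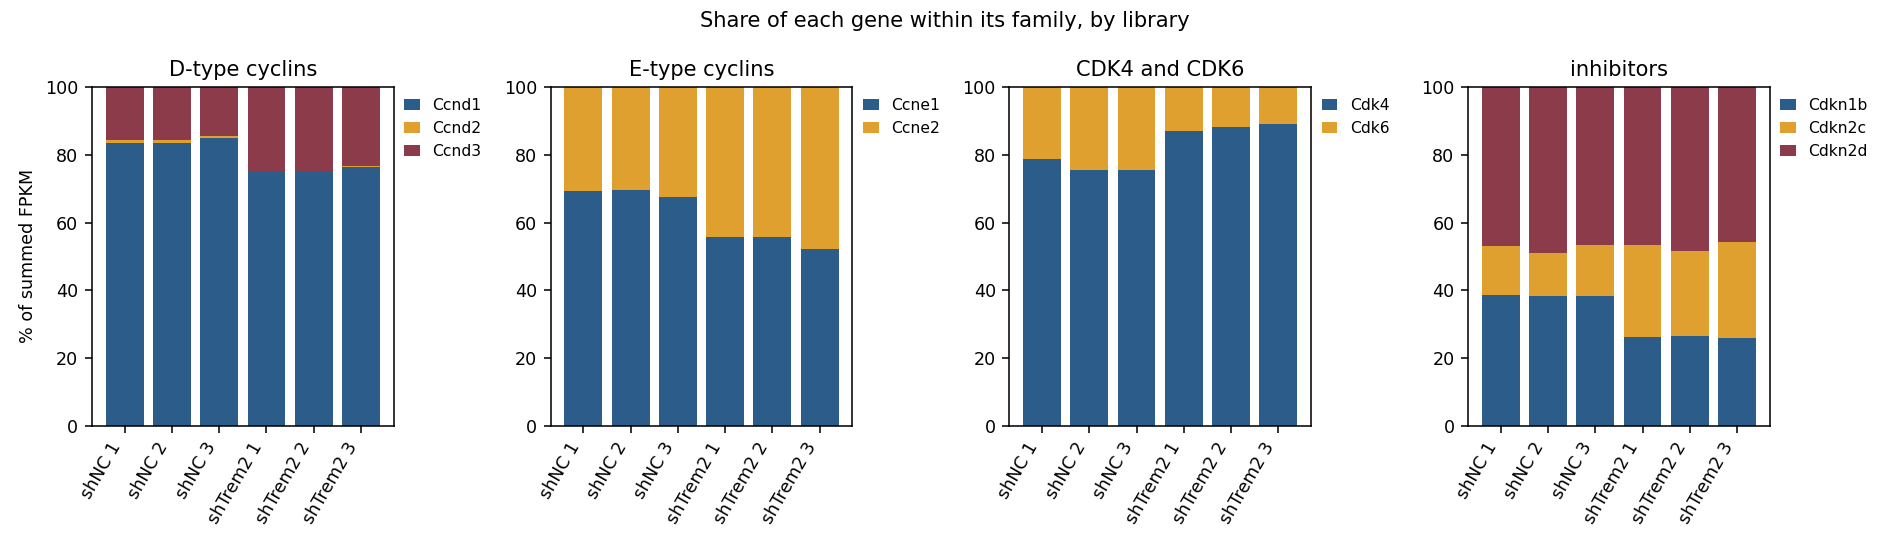
Share of each gene in the summed FPKM of its family (%), as a stacked bar for each library. Ccnd3, Ccne2, Cdk4 and Cdkn2c take larger shares in all 3 shTrem2 libraries than in any shNC library, and the share of Cdkn2d stays between 45.8% and 49.0% in all 6 libraries.

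The order of levels also differed between the groups. In shNC, Ccnd1 led with 200 ± 13.1 FPKM, followed by Cdk4 with 138 ± 12.8 FPKM. In shTrem2, Cdk4 led with 190 ± 14.5 FPKM and Ccnd1 came next with 148 ± 17.2 FPKM, and neither pair of ranges overlapped. Cdkn2d, Cdk6, Ccnd3 and Cdkn1b formed the middle in shNC, between 33.6 and 45.8 FPKM. In that order Cdkn2d and Cdk6 could not be separated by their ranges, nor could Ccnd3 and Cdkn1b. Ccne1, Cdkn2c and Ccne2 came next, each apart from its neighbour. In shTrem2 the middle was spread out, with Ccnd3 at 47.7 ± 3.08 FPKM at its top and Ccne2 at 17.5 ± 4.66 FPKM at its bottom. There, neighbouring ranges overlapped for Ccnd3 and Cdkn2d and in the run from Cdkn2c through Cdkn1b and Ccne1 to Ccne2. Ccnd2 was the lowest in both groups, at 1.79 ± 0.386 and 0.397 ± 0.0723 FPKM.

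The count table gives transcripts as unnamed lines under each symbol, so transcripts were named where annotated GENCODE M21 lengths rebuilt the FPKM of the gene within 1% in all libraries. This succeeded for 8 genes but not for Cdk6, where the best assignment missed by up to 2.28%. It was not tried for Ccnd3, which had 21 lines. For Cdk4 it did not single out the leading transcript. There the best assignment missed by at most 0.122%, but one with another leading transcript missed by only 0.593%, so the Cdk4 names that follow are those of the best assignment. Of Ccnd1, Ccnd1-201 held 98.6% of the estimated count in shNC and 97.6% in shTrem2. The leading line of Cdk4, assigned to the protein-coding Cdk4-201 of 2053 nt, went from 185 ± 4.14 to 266 ± 8.71 CPM (SD, n = 3), without overlap, whereas the line assigned to the retained-intron Cdk4-207 of 2038 nt had 17.9 ± 1.79 and 14.4 ± 1.73 CPM, with overlap. The share of the latter line in the gene was 8.50% in shNC and 4.97% in shTrem2.

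Both main transcripts of Cdkn1b were lower in every shTrem2 library. Cdkn1b-202 went from 60.3 ± 3.53 CPM to 35.6 ± 1.22 CPM, and Cdkn1b-203 from 28.9 ± 1.07 to 18.8 ± 1.83 CPM. Likewise, both transcripts of Cdkn2c were higher in every shTrem2 library, Cdkn2c-201 at 5.08 ± 0.414 against 7.67 ± 0.457 CPM and Cdkn2c-202 at 13.1 ± 2.56 against 27 ± 0.284 CPM. For Ccne2, the main transcript Ccne2-202 stood at 16.5 ± 1.74 and 33.3 ± 7.77 CPM. The largest line of Cdk6, which could not be named, held 99.2% of the gene in shNC and 98.9% in shTrem2 and had the same direction as the gene. The same was true of the line of Ccnd3 that held 93.9% of the gene in both groups.

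The wider G1/S pathway was read from gene lists grouped by role and chosen with earlier results of these data known. Among the other CDK inhibitors, Cdkn1a, which encodes the p53 target p21, fell from 461, 442 and 400 CPM in shNC to 166, 157 and 174 CPM in shTrem2. All shTrem2 libraries were far lower, with a log2 fold change of -1.36 ± 0.057 (SE; edgeR adjusted p = 6.30e-10). Cdkn1c, Cdkn2a and Cdkn2b had 0 counts in all 6 libraries, which allows up to 3 counts in a library, or 0.153 to 0.189 CPM depending on its depth. Thus both inhibitors of the CIP/KIP family that were detected, Cdkn1a and Cdkn1b, fell, and of the detected INK4 genes Cdkn2c rose and Cdkn2d did not pass the test.

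Of 6 genes for CDK2, its partners and the CDK-activating kinase, 3 rose, 1 fell and 2 did not pass, with a median log2 fold change of 0.13. The 4 called genes stand beside 57.4% called among all genes tested, a share near that of the list. Ccna2, the S phase cyclin, went from 132 ± 7.65 to 225 ± 8.52 CPM (SD, n = 3; log2 fold change 0.80, edgeR adjusted p = 3.46e-08). Cdk7, the catalytic subunit of the activating kinase, had a log2 fold change of 0.28 (adjusted p = 0.014), and Mnat1, its assembly factor, of -0.27 (adjusted p = 0.00309). Neither passed on FPKM in limma or with an offset for effective length, and Cdk7 also failed without shNC replicate 2 (adjusted p = 0.0963). Cdk2 itself, named after its values were seen, stood at 95.2, 85.6 and 87.2 CPM in shNC and 81.1, 77.7 and 86.1 CPM in shTrem2, with overlap (edgeR adjusted p = 0.184).

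Among the 13 pocket proteins, E2F and DP factors, 7 rose, 4 fell and 2 did not pass, with a median log2 fold change of 0.43, beside 28.8% higher and 28.6% lower among all genes tested. The pocket protein p107, encoded by Rbl1, rose from 63.0 ± 6.33 to 117 ± 2.13 CPM (log2 fold change 0.92, edgeR adjusted p = 7.76e-08). The pocket genes Rb1 and Rbl2, named after their values were seen, fell without overlap. Their log2 fold changes were -0.19 (edgeR adjusted p = 0.0247) and -0.45 (adjusted p = 2.01e-05). E2f8, a repressive E2F, rose from 22 ± 1.24 to 37.4 ± 4.28 CPM (log2 fold change 0.80). Tfdp1, the DNA-binding partner of E2f1 to E2f6, rose by a log2 fold change of 0.65, and E2f5, which works with pocket proteins in repression, fell from 27.7 ± 2.45 to 17.4 ± 1.58 CPM (log2 fold change -0.64). The adjusted p of these 3 was 4.21e-06, 1.92e-07 and 4.86e-05, in that order, in edgeR.

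The list on turnover of p27 and of G1 cyclins included parts of SCF ubiquitin ligases. Of its 11 genes, 10 were tested, since Skp1a was not a symbol of the table. Of these, 5 rose, 2 fell and 3 did not pass, and their median log2 fold change was 0.15. Of all genes tested, 57.4% were called. Cks1b, the cofactor by which SKP2 binds p27, rose from 92.0 ± 5.14 to 151 ± 2.48 CPM (log2 fold change 0.75, edgeR adjusted p = 4.38e-08). The SCF core subunits rose as well, with log2 fold changes of 0.68 for Cul1 (adjusted p = 3.94e-05), 0.57 for Rbx1 (adjusted p = 1.07e-06) and 0.33 for Skp1 (adjusted p = 2.95e-04). The genes that fell, named after their values were seen, were Skp2 itself, with a log2 fold change of -0.24 (edgeR adjusted p = 0.0224), and Fbxo4, an F-box gene, with -0.31 (adjusted p = 0.0304). With an offset for effective length only 4 genes of the list were called, namely Cks1b, Cul1, Rbx1 and Skp1. Neither Skp2 nor Fbxo4 passed there.

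Upstream of the D-type cyclins and p27, 4 of 9 genes rose, 4 fell and 1 did not pass, with a median log2 fold change of 0.43, beside 28.8% higher and 28.6% lower among all genes tested. Csf1r, the receptor for CSF1, rose from 1020, 1050 and 1150 CPM in shNC to 1800, 1730 and 1770 CPM in shTrem2 (log2 fold change 0.76, edgeR adjusted p = 5.15e-08). The zinc-finger factor Klf4 rose from 9.34 ± 0.8 to 27.4 ± 5.13 CPM (log2 fold change 1.59, adjusted p = 3.04e-07). Mxd1, which competes with MYC for MAX and for the E-box, fell from 13.7 ± 0.793 to 6.14 ± 0.572 CPM (log2 fold change -1.12, adjusted p = 3.49e-06). Tcf7l2, a nuclear partner of beta-catenin, rose from 2.00 ± 0.706 to 4.40 ± 0.734 CPM (log2 fold change 1.17, adjusted p = 0.00145). The gene that did not pass was Myc, at 2.83, 2.98 and 2.65 CPM in shNC and 4.63, 3.25 and 3.26 CPM in shTrem2 (edgeR adjusted p = 0.104), named here after its values were seen. The 3 other genes that fell were Foxo1, Foxo3 and Foxo4, forkhead factors that can activate Cdkn1b, also named after their values were seen, with log2 fold changes of -0.66, -0.64 and -0.34.

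All 13 genes of the E2F-driven S phase list rose, 11 of them by more than 1.5-fold, and their median log2 fold change was 0.86. Over all genes tested, 28.8% rose, 9.46% by more than 1.5-fold. Tyms, thymidylate synthase, rose from 17.2 ± 1.08 to 43.8 ± 5.09 CPM (log2 fold change 1.38, edgeR adjusted p = 3.68e-08). The helicase subunits Mcm5 and Mcm6 rose by log2 fold changes of 1.16 and 1.05 (adjusted p = 2.70e-09 and 1.99e-08). Rrm1, a subunit of ribonucleotide reductase, rose by 0.97 (adjusted p = 2.32e-08). Mki67, the proliferation marker outside these lists, stood at 466, 450 and 515 CPM in shNC and at 808, 778 and 834 CPM in shTrem2 (log2 fold change 0.79, adjusted p = 5.74e-08). Hence the list downstream of E2F moved in one direction, whereas the 10 G1 genes split into 4 that rose, 4 that fell and 2 that did not pass. Both were chosen with earlier results of these data known, so the contrast describes these genes and is no independent support. For Trem2 knockdown cells given IL-4 and debris, the study itself reports lower proliferation, fewer cells and more apoptosis. How the RNA levels given here relate to those assays was not tested.

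**Figure D4:**
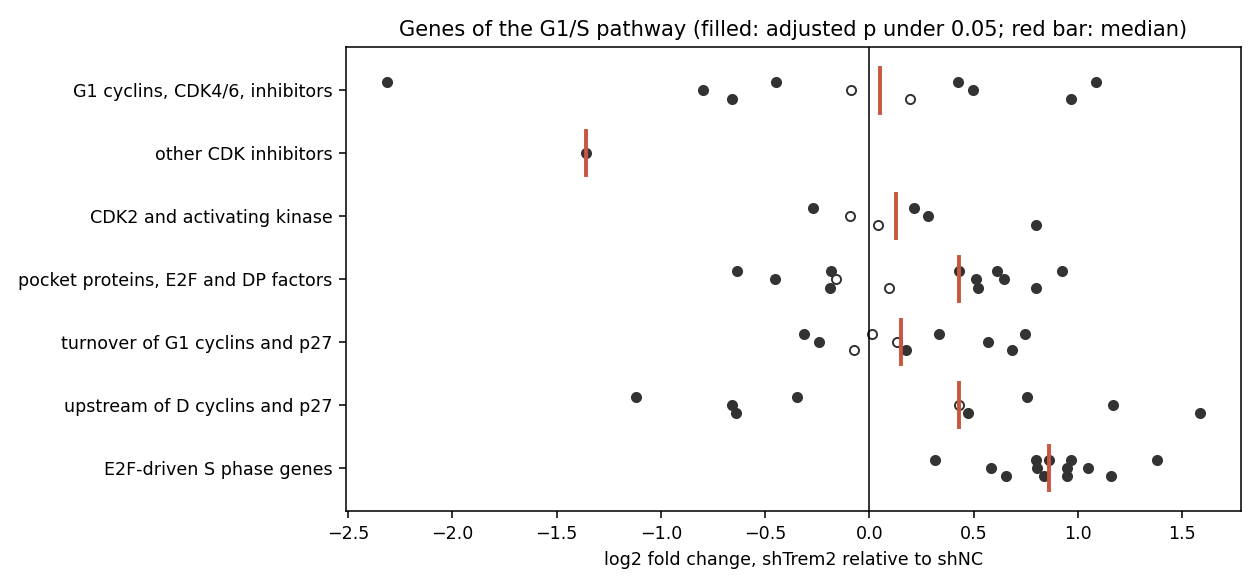
Log2 fold change of every tested gene of the 10 G1 genes and of the 6 pathway lists, shTrem2 relative to shNC; filled points have an edgeR adjusted p under 0.05 and red bars mark medians. All 13 E2F-driven S phase genes lie above 0, around a median of 0.86, while the G1 genes lie on both sides of 0 with a median of 0.05.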

How the data were processed

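RNA-seq libraries of shNC and shTrem2 RAW264.7 cells (n = 3 each), all given IL-4 and tubular debris, were grouped by the shRNA in their labels. Per the methods and labels, the authors used fastp for trimming, HISAT2 for strand-aware alignment to GRCm39 and StringTie for assembly of transcripts. The counting tool and annotation release are not given in the sources used here. The authors deposited estimated counts per transcript, not scaled for depth or length, and FPKM per gene.

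Estimated counts were summed per symbol and rounded. Values without a symbol (0.908% to 1.12% of a library) were left out, and no symbol of the 10 genes covered several gene identifiers. CPM used the named counts of a library. Genes were tested with edgeR 4.0.16 (TMM, filterByExpr, glmQLFit and glmQLFTest, R 4.3.3) over 13528 genes with Benjamini-Hochberg adjustment. SE is the log2 fold change divided by the root of F. DEGs also passed 1.5-fold, which are the criteria of the study. The script was tested on simulated data. The floor of 3 counts covers counting error only, as PCR copies are not independent molecules.

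The 10 genes and the lists were chosen with earlier results of these data known. The text names all 10, Trem2, Mki67, the other CDK inhibitors, and in each other list up to 4 genes with the largest change among those called without overlap. Results for other genes of these lists are marked as named after their values were seen. Alternatives were DESeq2 1.42.0, limma-voom, limma 3.58.1 on log2(FPKM + 1) and log2(FPKM + 0.1), a filter at a mean FPKM of 1, other scalings and count filters, an effective length offset, stricter thresholds, the replicate block, each library left out, and shares from counts. Promoters came from RefSeq (GRCm38.p6) and were used for sequence only, as the files use GRCm39.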

Additional observations from a re-analysis of the deposited data

How the results depend on the processing

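Across the alternative settings, 8 of the 10 genes were called in every one but that without shTrem2 replicate 2, where Ccne1 (0.30, adjusted p = 0.015) and Cdkn2d (-0.20, adjusted p = 0.0333) passed too. Leaving out 1 library in turn gave log2 fold changes of 0.05 to 0.30 for Ccne1 and -0.20 to -0.01 for Cdkn2d. A fold change over 2 left 2 DEGs, Ccnd2 and Ccne2, in place of 5. Of the 4 called genes of CDK2 and its activating kinase, 1 was called with limma on log2(FPKM + 1), with limma on log2(FPKM + 0.1), with limma at a mean FPKM of at least 1, and with the effective length offset. With that offset the turnover genes called were 4 in place of 7. The cause was not tested. Cdk7 lost its call in 5 of the settings and Mnat1 in 4. None of the genes followed through the settings changed direction. Those followed were the 10 genes and the others named by the rule above, not the genes named after their values were seen.

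Shares taken from counts, which are not scaled for length, changed in shTrem2 by -4.80 percentage points for Ccnd1, -0.931 for Ccnd2, 5.74 for Ccnd3, 22 for Cdk4, -22 for Cdk6, -16.5 for Cdkn1b, 14.5 for Cdkn2c and 1.90 for Cdkn2d. Of the genes listed here, which leave out Ccne1 and Ccne2, only Cdkn2d, whose share overlapped between groups, had another sign than on FPKM. Sizes also depended on the scale. On FPKM the share of Cdk4 went from 76.5% in shNC to 88.2% in shTrem2, and that of Ccnd1 from 84.1% to 75.4%.

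Replicate numbers did not pair the libraries, since deviations from the group means of same-numbered libraries correlated at 0.006, -0.004 and 0.007. With the replicate block 8 genes were called and 5 were DEGs, as without it. Depth limits Ccnd2 the most, at 32 to 41 counts per shTrem2 library.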

Other observations

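Minor transcripts of the 10 genes that could be named were read without a test, those of Cdk4 under the best assignment only. The retained-intron transcript Cdk4-206 stood at 0.579, 0.390 and 0.768 CPM in shNC but at 1.58, 3.17 and 2.98 CPM in shTrem2, without overlap, while Cdk4-203, also with a retained intron, stood at 1.27, 1.44 and 1.13 CPM in shNC against 1.11, 1.00 and 0.600 CPM in shTrem2. Ccnd1-203, a retained-intron transcript of Ccnd1, had 9.37 ± 2.13 and 11.1 ± 3.15 CPM (SD, n = 3) in shNC and shTrem2, with overlap, against a fall of the protein-coding Ccnd1-201 from 660 ± 42.2 to 469 ± 48.0 CPM. Its share of the gene was 1.09% to 1.65% in shNC and 2.03% to 2.73% in shTrem2. Cdkn2c-201, the shorter transcript of Cdkn2c, held 28.4% of the gene in shNC and 22.1% in shTrem2, and the ranges did not overlap. Cdkn1b-201 had 0 CPM in every shNC library and in shTrem2 replicate 1, and 2.69 CPM in shTrem2 replicate 2, which was 4.45% of the gene there.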
